A study of Mus musculus with 21 samples.

Results

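Rai14, named for its induction by retinoic acid, was followed in the livers of mice whose microRNA-122 had been blocked. It is 1 of the 18193 genes represented on the arrays with a gene symbol of their own, and 4 probe sets carry its symbol in the platform annotation. It was chosen from its measured values in these arrays. With each gene at its brightest probe set, it showed the deepest decrease in treated liver at day 3, a decrease that was smaller at days 9 and 23. The SPC3372 against saline differences of Rai14 are therefore a description here, with SEs and no p-values.

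SPC3372 is a locked nucleic acid antimiR, a short oligonucleotide that pairs with microRNA-122 and keeps it from its messenger RNAs. MicroRNA-122 is the dominant microRNA of hepatocytes. The treated animals were female NMRI mice, an outbred stock, given 25 mg per kg of SPC3372 on day 2 and killed on day 3, 9 or 23, and the comparison animals were NMRI females given saline and killed on the same days. Each of the 6 groups held 3 mice, and the labels state neither an age nor an altered gene. Whole liver RNA was hybridised on 21 arrays. The labels use mouse numbers 1, 2 and 3 for saline mice and 8 for a treated mouse at both day 3 and day 9. Since the livers were dissected, these were taken as different animals, 18 in all. The labels name the array sets p0617 and p0621, and treated mice 36, 37 and 38, killed on day 23, were run in both of them. Days 3 and 9 lie wholly in p0617, and the saline mice of day 23 lie in p0621 alone, so the comparison with saline on each day stays within 1 set and the 7th group is the repeat of the treated day 23 mice. Values are log2 levels per probe set. The arrays' number limits the precision, and in whole liver fewer cells of a type and less RNA per cell cannot be told apart.

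Rai14, also called ankycorbin, encodes a protein with ankyrin repeats at one end and a long coiled coil at the other. It binds actin filaments, and in rat Sertoli cells it is known for a part in keeping actin filaments bundled at cell junctions. It was first described as a transcript that retinoic acid raises in a human retinal pigment epithelial cell line.

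The RefSeq promoter table (build GRCm38.p6) lists 2 start sites for Rai14, 558 bases apart on the minus strand of chromosome 15. Both windows are shown because they differ in make-up and the array values do not tell from which start a transcript came. Each runs from 250 bases before to 50 bases after the start, 5′ to 3′ on the gene's strand. In the upstream window, chr15:10714049-10714348, capitals mark CG pairs.
Upstream start: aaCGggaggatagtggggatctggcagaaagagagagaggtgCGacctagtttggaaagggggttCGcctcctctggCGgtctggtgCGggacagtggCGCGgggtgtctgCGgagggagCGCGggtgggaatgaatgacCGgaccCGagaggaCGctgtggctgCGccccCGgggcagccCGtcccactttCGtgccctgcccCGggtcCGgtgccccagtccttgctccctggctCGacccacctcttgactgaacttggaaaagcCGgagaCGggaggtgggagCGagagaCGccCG
In the downstream window, chr15:10713491-10713790, capitals mark the searched motifs AGGTCA, the half-site that retinoic acid receptors and other nuclear receptors bind, and TATAAA, the core of a TATA box, on either strand.
Downstream start: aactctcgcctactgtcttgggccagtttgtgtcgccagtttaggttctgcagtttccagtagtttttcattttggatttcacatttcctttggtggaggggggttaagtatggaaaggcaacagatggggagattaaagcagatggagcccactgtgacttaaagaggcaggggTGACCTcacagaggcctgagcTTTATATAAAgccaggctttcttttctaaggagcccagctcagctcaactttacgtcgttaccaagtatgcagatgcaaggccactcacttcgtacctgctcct
The upstream window held 25 CG pairs, more than 81.6% of the 32851 windows in the table, whose median was 7, and neither motif. The downstream window held 5 CG pairs. It also held the nuclear receptor half-site on the opposite strand (as TGACCT), beginning 75 bases before the start. The TATA core began 50 bases before the start and overlapped its own copy on the opposite strand, which began 54 bases before it. The half-site occurred on either strand in 16.3% of all windows and the TATA core in 13.6%. Each match is a description of these letters, and whether it works as a site was not tested.

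The probe set of highest level, 1417400_at, carried the pattern. At day 3 its log2 levels were 4.43, 4.59 and 4.34 in SPC3372 mice, against 8.43, 8.18 and 8.46 in saline mice. The highest treated array lay well under the lowest saline array. The group means were 4.45 ± 0.13 in treated and 8.35 ± 0.15 in saline liver (SD, n = 3 each), a difference of -3.90 (SE 0.16). By this probe set treated liver thus held 6.68% of the saline level. With each gene at its brightest probe set, the next deepest difference at day 3 was that of 9130409I23Rik, -2.08. Rai14 differed by less than that in another of its probe sets, 1417401_at (-1.65), and in the mean of all its probe sets (-1.59). The treated level lay below the medians of its own arrays, 4.79 to 4.82, a range in which RMA flattens differences. So 6.68% may be an overestimate of what remained by this probe set, while 1417401_at gave 31.8% on the same arrays.

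At day 9 the levels of 1417400_at were 6.89, 6.08 and 6.56 in SPC3372 mice, against 8.11, 7.86 and 7.81 in saline mice. The groups again did not overlap, and the 3 treated mice were further apart than those of any other group (SD 0.41, against 0.08 to 0.20 in the other 6 groups). The means were 6.51 in treated and 7.92 in saline liver, a difference of -1.42 (SE 0.16), and treated liver held 37.4% of the saline level. Within the treated animals the level at day 9 was 2.06 higher than at day 3 (SE 0.16), and within the saline animals it was 0.43 lower (difference -0.43, SE 0.16). So in 1417400_at the narrowing between these days came with a higher treated level and, to a smaller extent, a lower saline level. The shares differed in 1417401_at, given below.

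At day 23, in p0621, 1417400_at stood at 8.17, 7.88 and 8.26 in SPC3372 mice, against 8.59, 8.41 and 8.31 in saline mice. The treated arrays still lay below the saline arrays, by a margin of less than the SD of either group. The means were 8.10 ± 0.20 in treated and 8.44 ± 0.14 in saline liver, a difference of -0.33 (SE 0.16), and treated liver held 79.4% of the saline level. Without treated replicate 2, the lowest array, the difference was -0.22.

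**Figure D1:**
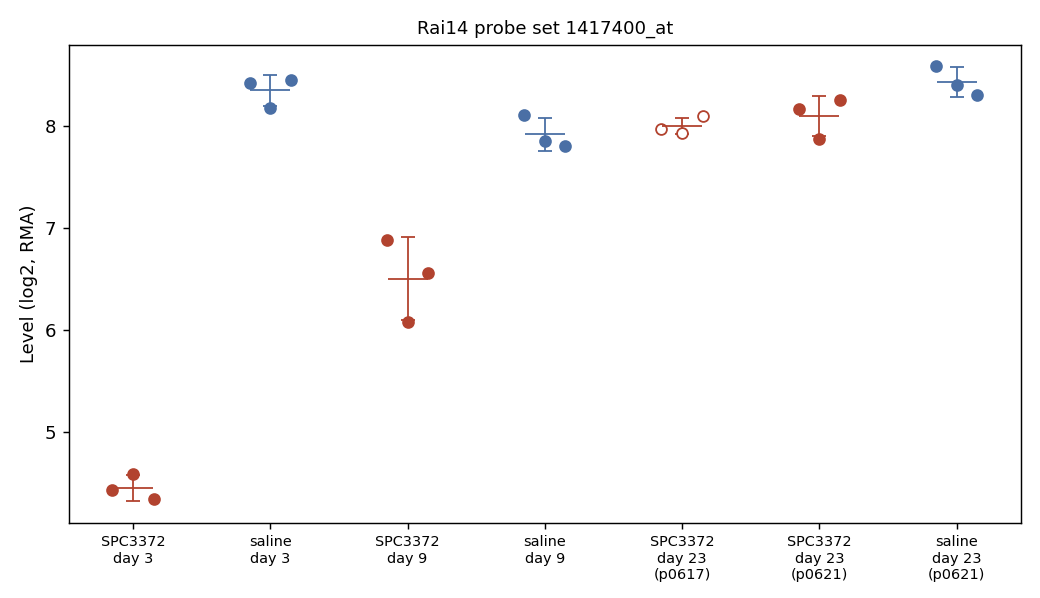
Log2 level of Rai14 probe set 1417400_at on each array (points), with the group mean and SD (bars), for SPC3372 mice in red and saline mice in blue; open points are the repeat of the day 23 SPC3372 mice in p0617. Treated arrays sat between 4.34 and 4.59 at day 3 and between 6.08 and 6.89 at day 9, and every array of the other 5 groups lay at 7.81 or above.

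In rising order of level the 7 groups were treated day 3 (4.45), treated day 9 (6.51), saline day 9 (7.92), treated day 23 in p0617 (8.01), treated day 23 in p0621 (8.10), saline day 3 (8.35) and saline day 23 (8.44). The first 2 steps, of 2.06 and 1.42, were larger than the SD of either neighbour, and the arrays did not overlap there. From saline day 9 upward each group overlapped the next one in the order. The steps of 0.08 to 0.10 lay within the larger SD of the pair, while the step of 0.25 from treated day 23 in p0621 to saline day 3 was slightly larger than its SD of 0.20.

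The repeat in p0617 shows how far the treated day 23 level held in a second run of the same mice. It is a description, since the p0621 values belong to the course for which Rai14 was selected. In p0617 mice 36, 37 and 38 gave 7.98, 7.94 and 8.10 for 1417400_at, beside 8.17, 7.88 and 8.26 in p0621. The sets differed by 0.19, -0.06 and 0.16 in the 3 mice (p0621 minus p0617), on average by 0.10 (SE 0.10, from a fit with the mouse as a block), with no common direction. The other Rai14 probe sets differed by -0.06 (1417401_at), -0.09 (1441030_at) and -0.07 (1444777_at). Over all probe sets 0 of 45037 passed the limma test of array set (0%, with 4234 at an unadjusted p under 0.05), and 3 mice with 2 arrays each give little power. In the p0617 set itself, where saline mice of days 3 and 9 were run, the treated day 23 level of 1417400_at was 0.35 lower than saline day 3 and 0.08 higher than saline day 9 (differences of -0.35 and 0.08).

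The second probe set that the platform annotation ties to the RefSeq transcript of Rai14, 1417401_at, also had its deepest difference at day 3. Its differences were smaller than those of 1417400_at on each day. From day 3 to day 9 its treated level rose by 0.33 and its saline level differed by -0.41 (SE 0.16 each). So its narrowing came with changes of similar size in both, unlike 1417400_at. Its treated day 3 mean of 4.86 lay near the medians of those arrays, 4.79 to 4.82, where RMA flattens differences. The sizes of its treated rise and of its day 3 difference may thus be underestimates. From day 9 to day 23, across array sets, its treated level rose by 0.89 (SE 0.16). At day 3 it stood at 4.83, 5.20 and 4.53 in SPC3372 mice, against 6.68, 6.29 and 6.55 in saline mice, a difference of -1.65 (SE 0.16) without overlap. At day 9 it stood at 5.19, 5.22 and 5.15 in treated mice, against 6.16, 6.03 and 6.12 in saline mice, a difference of -0.92 (SE 0.16), again without overlap. At day 23 the levels were 6.23, 5.74 and 6.25 in treated mice, against 6.20, 6.37 and 6.45 in saline mice, so the groups overlapped (difference -0.27, SE 0.16, and -0.10 without treated replicate 2, the lowest array). Treated liver held 31.8%, 53.0% and 83.2% of the saline level at days 3, 9 and 23 by this probe set. The spread of the treated day 9 mice that 1417400_at showed was absent here (SD 0.04).

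The remaining probe sets, which the annotation ties to other Rai14 sequence entries, had overlapping treated and saline groups on each day. At day 3 1441030_at gave 5.27, 6.18 and 5.26 in SPC3372 mice, against 6.28, 5.68 and 6.54 in saline mice. One mouse on each side crossed into the other group's range, and the difference was -0.60 (SE 0.32). It was 0.27 at day 9 and 0.46 at day 23 (SE 0.32 each), in the other direction, with overlapping groups on both days. Single saline mice moved the day 9 value, which was -0.02 without saline replicate 3 and 0.67 without saline replicate 2. The day 23 value was 0.29 without treated replicate 3. The dimmest, 1444777_at, gave 4.39, 4.33 and 4.45 in SPC3372 mice, against 4.83, 4.40 and 4.56 in saline mice at day 3, and its differences were -0.21, -0.16 and 0.00 at days 3, 9 and 23 (SE 0.14 each), all within 0.31 of 0 with any 1 array left out. Its mean in each of the 7 groups lay under 4.79, the median over all probe sets, so it had little room to show a decrease.

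**Figure D2:**
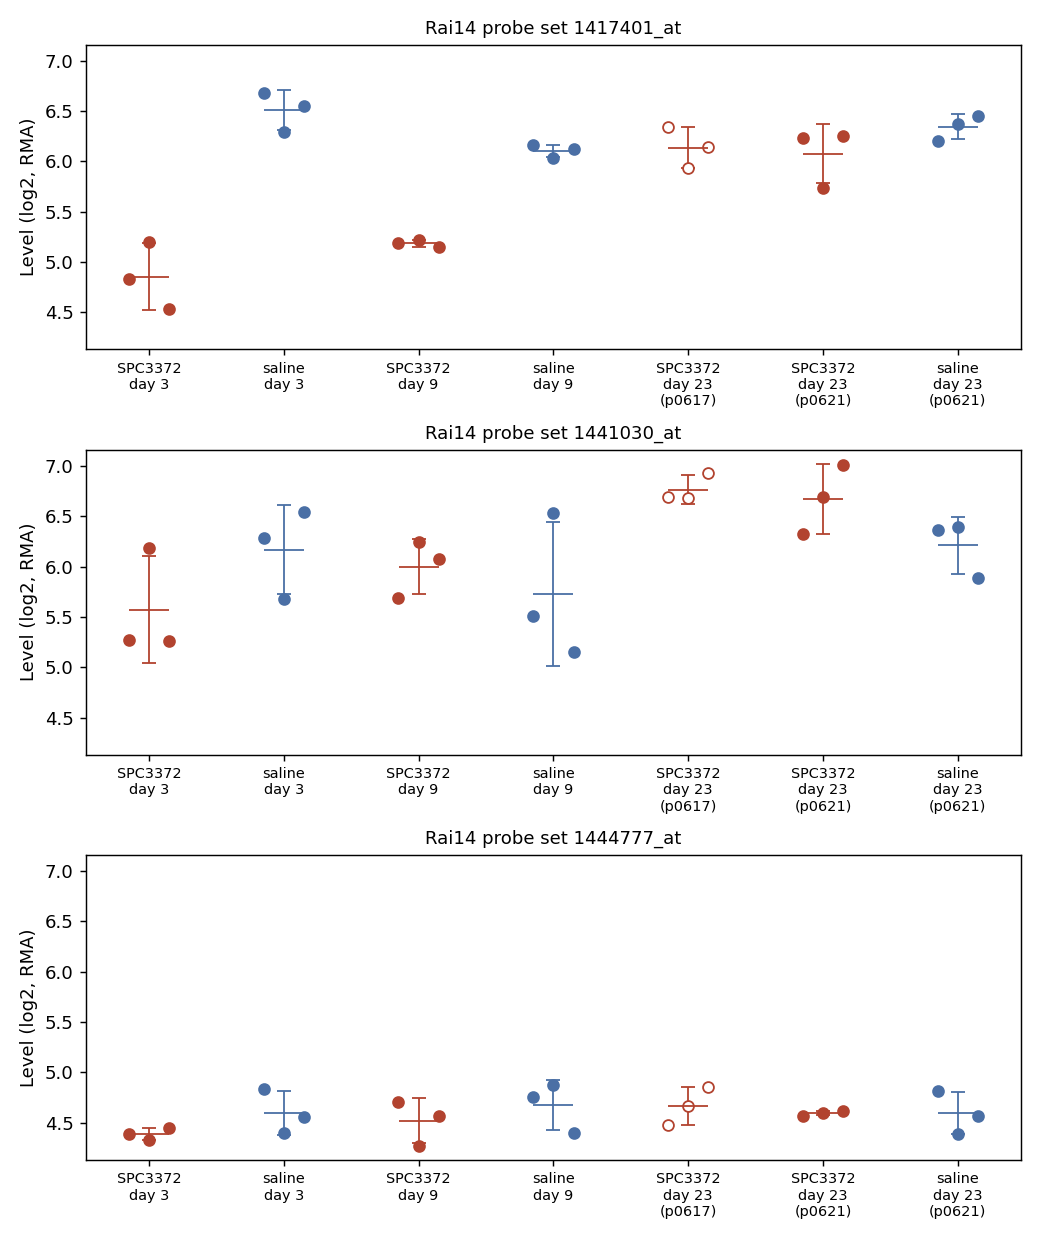
Log2 level of the other 3 Rai14 probe sets on each array (points), with the group mean and SD (bars), SPC3372 mice in red and saline mice in blue, open points for the p0617 repeat. In 1417401_at the treated arrays of days 3 and 9 (4.53 to 5.22) lie below all saline arrays, while in 1441030_at and 1444777_at the groups overlap on each day.

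Of the 4 probe sets, 2 had all treated arrays below all saline arrays at day 3, the same 2 at day 9 and 1 at day 23. Over all 45037 probe sets the share with that arrangement was 9.02%, 9.8% and 8.65% on these days. Since the day 3 contrast chose the gene, nothing is read from these counts. Across the 18 arrays, 1 per mouse, 1417401_at correlated with 1417400_at at 0.923, 1444777_at at 0.526 and 1441030_at at 0.459. After removal of the group means the correlations were 0.395, 0.597 and 0.0837. These are descriptions over arrays that share their RNA and scaling.

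**Figure D3:**
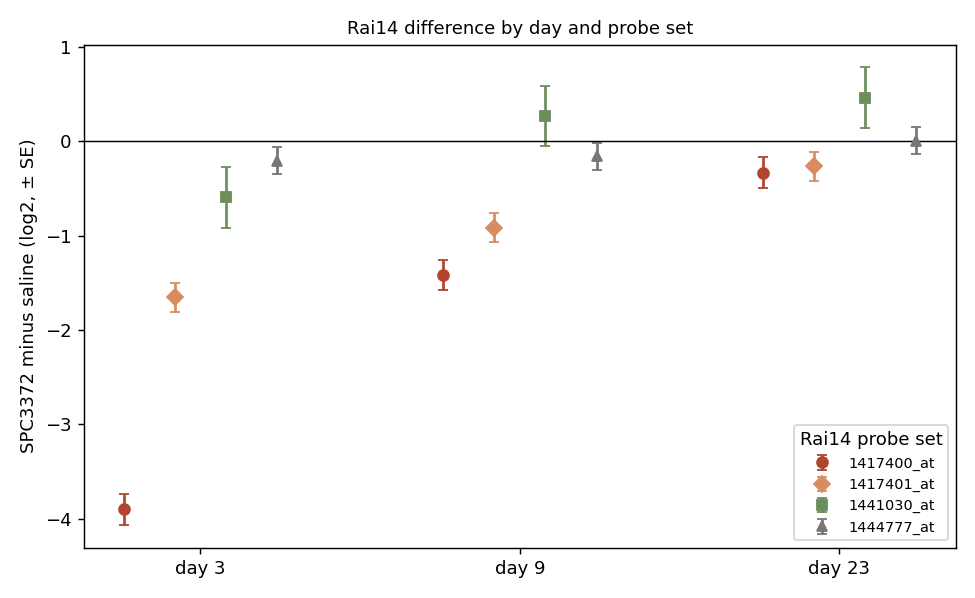
Difference between SPC3372 and saline mice (log2, with the SE of the fit) for each Rai14 probe set at days 3, 9 and 23. 1417400_at moves from -3.90 through -1.42 to -0.33 and 1417401_at from -1.65 through -0.92 to -0.27, whereas 1441030_at runs from -0.60 to 0.46 and 1444777_at stays within 0.21 of 0.

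The tissue label and the cell makeup were checked with marker lists. For scale, 2.63% of all genes passed the limma test as higher and 1.88% as lower at day 3, and 1.91% and 0.896% at day 9. The 8 hepatocyte markers were bright, with their summed log2 level at 17.02 to 17.08 in SPC3372 and 17.02 to 17.08 in saline mice at day 3, and 0 of 8 passed the limma test that day (0 at an unadjusted p under 0.05). Of 10 stellate cell markers 0 passed at day 3 (2 at an unadjusted p under 0.05), with a summed level of 12.09 to 12.54 in treated and 12.22 to 12.28 in saline mice. The stellate differences ran from -0.29 to 0.44 that day, with a list median of -0.13, beside 0.01 over all genes. Of 10 sinusoidal endothelium markers 1 rose, with 12.07 to 12.50 in treated and 11.85 to 12.15 in saline mice. Kupffer cell markers moved the other way from Rai14 at day 3: 6 of 9 rose and 0 fell, and the summed level was 12.91 to 13.53 in treated and 12.13 to 12.93 in saline mice. Of 11 lymphocyte markers 3 rose, Gzma by 1.40, Gzmb by 1.12 and Ccl5 by 1.52, with a summed level of 9.15 to 9.47 in treated and 8.39 to 8.61 in saline mice. The other 8, which include the T and B cell markers of the list, did not pass. Of 5 cholangiocyte markers 1 rose, with 7.20 to 7.23 in treated and 7.03 to 7.18 in saline mice. No marker had a level of 0, and the dimmest were Cftr (2.89 on average) and Cd2 (3.62). RNA integrity was read from the beta-actin control probe sets, as the log2 level at the 3′ end minus that at the 5′ end. This was 1.01 to 1.05 in treated and 0.756 to 0.846 in saline mice at day 3, 1.12 to 1.16 in treated and 0.861 to 0.980 in saline mice at day 9, and 1.04 to 1.33 in treated and 1.11 to 1.18 in saline mice at day 23. At day 9 0 of 9 Kupffer cell and 0 of 11 lymphocyte markers passed by limma (3 and 1 at an unadjusted p under 0.05). On that day 3 of 10 stellate cell markers rose, Reln by 0.63, Dcn by 0.57 and Hand2 by 0.53, with a list median of 0.44 and a summed level of 12.12 to 12.40 in treated and 11.71 to 11.98 in saline mice. The endothelial Clec4g (0.48) and the hepatocyte gene Apob (0.98) also rose at day 9. The part of other cell types and of RNA integrity in the Rai14 differences was not tested.

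The genes beside Rai14 on chromosome 15 showed no decrease past the test, although several were too dim to show one well. Of the 5 nearest genes on each side with a probe set, 0 of 10 passed the limma test at any day (1, 1 and 2 at an unadjusted p under 0.05 at days 3, 9 and 23). Over all genes 2.63% passed as higher and 1.88% as lower at day 3, 1.91% and 0.896% at day 9, and 0.187% and 0.198% at day 23. The median difference of the neighbours at day 3 was -0.07, beside 0.01 over all genes. On the side of the gene's end, Ttc23l differed by 0.04, the checkpoint clamp subunit Rad1 by -0.23, the ribosome assembly factor Brix1 by -0.20, the co-chaperone Dnajc21 by -0.15 and the mitochondrial aminotransferase Agxt2 by 0.03 at day 3. On the side of its start, the long noncoding RNA 4930556M19Rik differed by -0.41 (3.79 ± 0.13 in treated and 4.20 ± 0.22 in saline mice, adjusted p = 0.114), the deepest of the 10. The racemase gene Amacr differed by -0.18 and the melanosome transporter gene Slc45a2 by 0.24. The dim C1qtnf3, for a secreted C1q-like protein, had a level of 2.50 in treated against 2.51 in saline mice, and the protease gene Adamts12 had 3.48 in both. The saline day 3 means of Ttc23l (2.97), C1qtnf3, Adamts12, 4930556M19Rik and Rad1 (4.52) lay under 4.79, the median over all probe sets. These dim neighbours had little room to show a decrease. At day 9 the largest difference of the 10 neighbours was that of Rad1, 0.95 (adjusted p = 0.126, and 0.0191 with a difference of 1.38 without saline replicate 2).

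The relatives of Rai14 with ankyrin repeats and a coiled coil showed no decrease past the test either. Uaca, also known as nucling and tied to cell death signalling, stood at 5.62 ± 0.23 in SPC3372 and 5.75 ± 0.02 in saline mice at day 3 (difference -0.13, SE 0.13, adjusted p = 0.68), and differed by 0.01 at day 9 and 0.09 at day 23. Ankrd24, known from hair cells of the mouse inner ear, rose at day 9, with 7.23 ± 0.13 in treated and 6.56 ± 0.08 in saline mice (difference 0.68, SE 0.13, adjusted p = 0.0114). It no longer passed with treated replicate 3 left out (adjusted p = 0.0572), and the mean of its probe sets differed by 0.42 (adjusted p = 0.0445). Ankrd24 differed by 0.22 at day 3 and by 0.37 at day 23, without passing. So 1 of 2 relatives rose at day 9 and 0 of 2 fell at any day by limma (0, 1 and 1 of 2 at an unadjusted p under 0.05 at days 3, 9 and 23). Among all genes 1.91% rose at day 9, and 1.88%, 0.896% and 0.198% fell at days 3, 9 and 23.

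Genes that bundle and cross-link actin filaments, the activity Rai14 is known for, gave 0 calls at days 3 and 9 by limma. Of the 16 measured, 2 had an unadjusted p under 0.05 on each of these days, and the median differences were 0.05 and 0.15, beside 0.01 and -0.02 over all genes. All genes passed as higher and lower in 2.63% and 1.88% at day 3, 1.91% and 0.896% at day 9, and 0.187% and 0.198% at day 23. At day 23 1 of 16 rose, Marcks, a membrane-bound actin cross-linker, with 9.10 ± 0.36 in treated and 8.38 ± 0.11 in saline mice (difference 0.72, SE 0.15, adjusted p = 0.0478). Marcks no longer passed when treated replicate 2 or 3 or any of the 3 saline replicates was left out (adjusted p = 0.0588 to 0.135), with the replicate block (0.0612) or on the day 23 arrays alone (0.179). The plastin gene Pls1, singled out after its values were seen, with a difference of 0.64 at day 3, did not pass (adjusted p = 0.112, and 0.0383 with a difference of 0.87 without treated replicate 2).

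Genes of actin filament turnover moved in part at day 3. Of 19 measured, 3 rose and 1 fell, and the median difference was 0.06, beside 0.01 over all genes. The shares of all genes that passed as higher and lower were 2.63% and 1.88% at day 3. They were 1.91% and 0.896% at day 9, and 0.187% and 0.198% at day 23. Tmsb10, a thymosin that binds actin monomers, reached 10.71 ± 0.26 in SPC3372 and 9.83 ± 0.21 in saline mice (difference 0.87, SE 0.15, adjusted p = 0.00202). Capg, a capping protein rich in macrophages, reached 5.85 ± 0.34 in treated and 4.99 ± 0.25 in saline mice (difference 0.87, adjusted p = 0.00258), and Tmsb4x, the other abundant thymosin, rose by 0.65 (adjusted p = 0.0147). Cfl2, a cofilin that severs filaments, was the member that fell, with 9.21 ± 0.13 in treated and 9.64 ± 0.07 in saline mice (difference -0.42, adjusted p = 0.0122). Cfl2 no longer passed with treated replicate 1 (adjusted p = 0.0716) or saline replicate 2 (0.0573) left out or with the mean of its probe sets (difference -0.24, 0.0828), nor Tmsb4x with replicate 1 or 2 of either group left out (0.063 to 0.0813). The mean of probe sets gave smaller rises of Tmsb10 (0.40) and Capg (0.54), both past the test. On the day 3 arrays alone Tmsb10 still passed, while Capg (adjusted p = 0.0655), Cfl2 (0.0827) and Tmsb4x (0.133) did not. The rises of Tmsb10, Tmsb4x and Capg stand beside the rise of Kupffer cell markers given above, whose part in them was not tested. At day 9 1 of 19 rose, Gsn, the severing protein gelsolin, with 9.08 ± 0.15 in treated and 7.43 ± 0.14 in saline mice (difference 1.65, SE 0.30, adjusted p = 0.00777). The day 9 rises of Gsn, Ankrd24 and Rxra stand beside those of the 3 stellate cell markers given above, whose part in them was not tested. At day 23 0 of 19 passed by limma (4 at an unadjusted p under 0.05). Gsn then differed by 1.20 (adjusted p = 0.073, and 0.0316 with a difference of 1.65 without treated replicate 3).

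Retinoic acid signalling, from which Rai14 has its name, gave 0 calls of 19 measured genes at day 3 (2 at an unadjusted p under 0.05), with a median difference of -0.04. Beside this list, 2.63% of all genes passed as higher and 1.88% as lower at day 3, 1.91% and 0.896% at day 9, and 0.187% and 0.198% at day 23. At day 9 1 of 19 rose, the retinoid X receptor gene Rxra, with 9.91 ± 0.15 in treated and 9.40 ± 0.09 in saline mice (difference 0.52, SE 0.12, adjusted p = 0.0331). With treated replicate 1 (adjusted p = 0.0875) or 3 (0.145), or saline replicate 1 (0.0991) or 3 (0.108), left out it did not pass. The mean of its probe sets differed by 0.19 (adjusted p = 0.191). At day 23 0 of 19 passed by limma (3 at an unadjusted p under 0.05). Cyp26a1, the enzyme that breaks down retinoic acid and a classic retinoic acid target, was singled out after its values were seen. Its mice were far apart at day 3, with 8.45 ± 1.78 in SPC3372 and 9.05 ± 1.31 in saline mice (difference -0.60, SE 0.75), and its differences of 2.05 at day 9 and 1.99 at day 23 did not pass (adjusted p = 0.165 and 0.228).

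**Figure D4:**
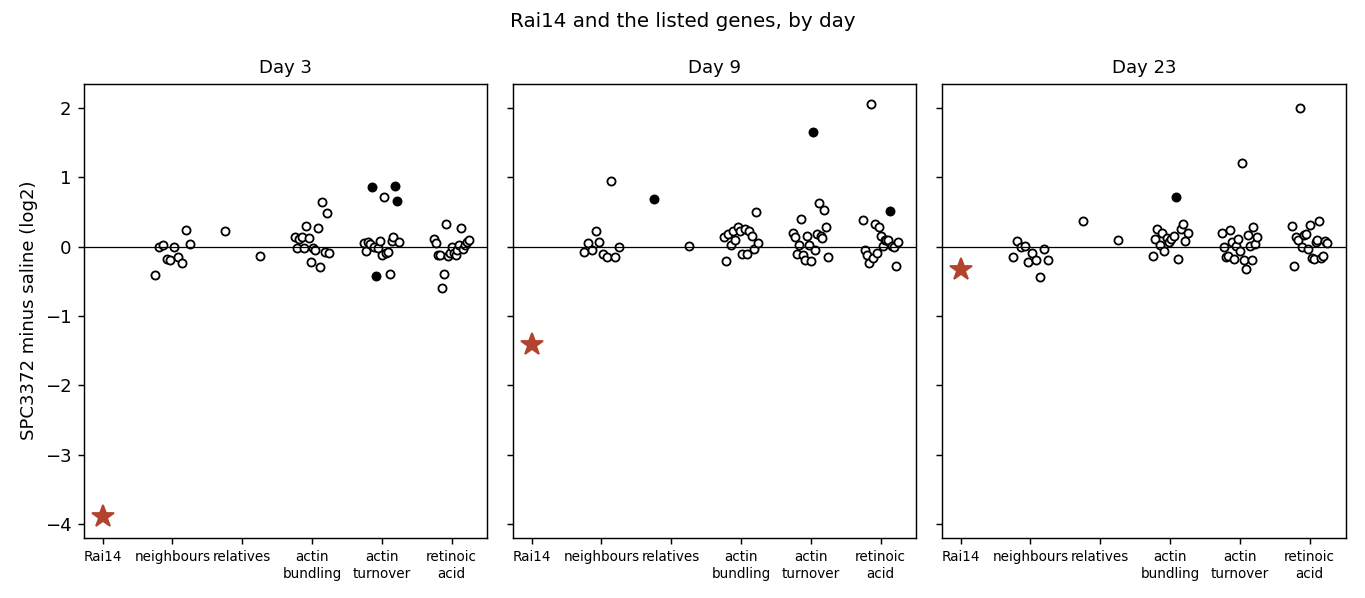
Difference between SPC3372 and saline mice (log2) for Rai14 probe set 1417400_at (red star) and for each gene of its chromosomal neighbours, its relatives and 3 pathway lists (circles, filled where the gene passed the limma test), at days 3, 9 and 23. Rai14 lies at -3.90 at day 3 while the listed genes lie between -0.60 and 0.87.

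The genes whose course over the 18 arrays was most like that of 1417400_at moved far less. Likeness was the Pearson correlation of log2 levels, compared over 18192 genes, and 34 genes exceeded 0.8 and 0 exceeded 0.9, while on the opposite side 74 lay below -0.8 and 7 below -0.9. The closest were Ctsf, the lysosomal protease cathepsin F (0.873), the mitochondrial release factor gene Mtrf1l (0.867), Etfa, a subunit of the electron transfer flavoprotein (0.861), the amino acid transporter chain gene Slc3a2 (0.86) and the zinc transporter gene Slc30a7 (0.857). Ctsf stood at 7.24 ± 0.03 in SPC3372 and 7.93 ± 0.13 in saline mice at day 3 (difference -0.69, SE 0.09), the deepest of the 5, and the others differed by -0.41 to -0.66. At days 9 and 23 all 5 differed by -0.09 to -0.33. Over the 12 arrays of days 9 and 23 alone the correlation held at 0.828 for Slc30a7 and was 0.276 to 0.641 for the other 4.

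The most opposite courses were those of Lgals3bp, a secreted galectin ligand (-0.947), Dhx58, a sensor of viral RNA (-0.928), Hjv, the hemojuvelin gene of iron control (-0.921), Mrps21, a mitochondrial ribosomal protein gene (-0.915), and Slfn4, a mouse Schlafen gene of myeloid cells (-0.913). Lgals3bp stood at 10.70 ± 0.17 in SPC3372 and 8.67 ± 0.17 in saline mice at day 3, and its differences were 2.03, 1.20 and 0.46 at days 3, 9 and 23. Its correlation over days 9 and 23 alone was -0.847, close to those of Mrps21 (-0.84) and Hjv (-0.835), with -0.702 for Dhx58 and -0.57 for Slfn4. After removal of group means all 10 correlations were between -0.461 and 0.237, so the likeness lies mostly between groups. Mrps21 (-0.461) and Hjv (-0.43) were the largest in size and kept their direction between mice of a group. The 10 genes were picked for their likeness, a measure that includes the day 3 arrays on which Rai14 was selected, and no test is given for them.

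**Figure D5:**
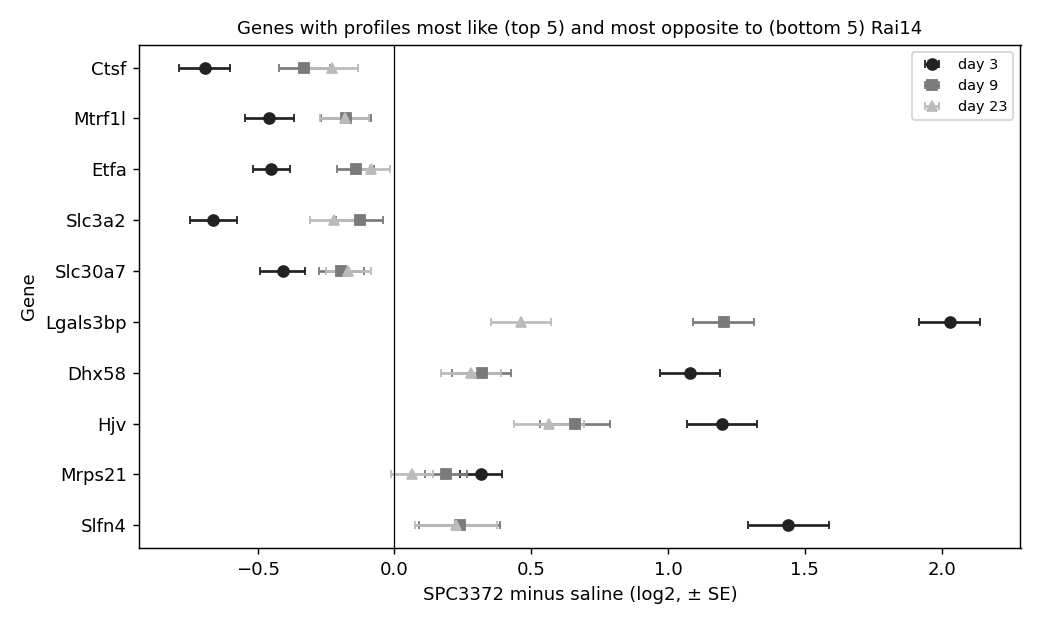
Difference between SPC3372 and saline mice (log2, with the SE of the fit) at days 3, 9 and 23 for the 5 genes whose levels correlated most positively with Rai14 over 18 arrays (upper rows) and the 5 most negatively (lower rows). In each gene the day 3 difference is the largest in size, from -0.69 for Ctsf to 2.03 for Lgals3bp.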

How the data were processed

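Liver RNA of 18 mice was measured on 21 Affymetrix arrays, which use biotin-labelled cRNA from one-cycle cDNA synthesis per the labels' protocols. The deposited values are log2 levels of 45101 probe sets, made by the authors with RMA per the submitters' processing notes; the version of RMA is not given in the sources used here, nor is the set of arrays it was run on. Gene symbols came from the platform annotation, and RefSeq tables of GRCm38.p6 gave gene order and the printed sequences. Group means of 18 arrays (p0621 for day 23) were fitted with limma 3.58.1 in R 4.3.3, two-sided, with Benjamini-Hochberg adjustment at 0.05, over 45037 probe sets other than controls for Rai14 and over 18193 genes, each at its brightest probe set, for lists. All 6 groups shared 1 estimate of the spread (12 residual degrees of freedom). The labels do not say whether mice shared a litter or cage, and the p-values of SPC3372 against saline rest on the spread between these mice. The array sets were compared over 6 arrays with the mouse as a block, so that test rests on the spread of the difference between arrays of a mouse. The named genes are every Rai14 probe set, the 5 most and 5 least correlated genes, 10 neighbours, both relatives, and list members that passed (up to 4 a day), and Pls1, Cyp26a1, Gsn at day 23 and the genes of changed calls were named after their values were seen. Rai14 and the lists were chosen with earlier results of these data known. Members without a single-gene probe set were not analysed here. Alternatives were quantile normalization, median centring, a filter at the median level, the mean of probe sets, the day's own arrays, an intensity trend, a replicate block, the p0617 arrays and each array left out. The steps were tested on simulated data. Figures were drawn with matplotlib 3.10.9 in Python 3.11.15.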

Additional observations from a re-analysis of the deposited data

How the results depend on the processing

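With each array left out in turn, the SPC3372 minus saline difference of Rai14 probe set 1417400_at was -3.99 to -3.85 at day 3, -1.61 to -1.20 at day 9 and -0.41 to -0.22 at day 23, its saline day 9 minus day 3 difference -0.52 to -0.37, its treated one 1.87 to 2.27, and its p0621 minus p0617 difference 0.05 to 0.18. The mean of all 4 Rai14 probe sets differed by -1.59, -0.56 and -0.033 at days 3, 9 and 23. With arrays left out, 1417401_at gave -0.35 to -0.10 and 1441030_at 0.29 to 0.64 at day 23, and 1444777_at -0.31 to -0.09 at day 3. With the treated mice taken from p0617 the day 23 difference was -0.43, but this crosses array sets, since the saline mice of day 23 are in p0621. Treated and saline arrays of a day share only the replicate number of their titles, and no mouse number. Their deviations from the group means correlated at -0.137 to 0.0763, under the 0.1 asked of each pair, so the block is given only here. Between days 3 and 9, mice of the same number and treatment correlated at -0.0652, -0.153 and 0.0569 (saline 1, 2 and 3) and 0.128 (treated 8). The replicate block left the Rai14 differences as they were (-3.90, -1.42 and -0.33), ended the Marcks call (0 of 16) and gave 7 higher and 6 lower genes at day 23, against 34 and 36. On the day's own arrays, with fewer residual degrees of freedom, all genes gave 186 higher and 67 lower at day 3, 98 and 34 at day 9, and 0 and 0 at day 23. At day 23 the higher and lower counts were 57 and 84 after quantile normalization, 91 and 123 above the median level and 89 and 121 with an intensity trend, and the higher count was 19 with median centring and 19 with the mean of probe sets. With arrays left out, the counts were 312 to 541 higher and 123 to 335 lower at day 3, 132 to 264 and 44 to 126 at day 9, and 1 to 37 and 2 to 35 at day 23.

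Of the actin turnover list, 1 gene rose at day 3 on its own arrays and 2 to 3 with arrays left out, and 0 fell with the mean of probe sets or its own arrays and 0 to 1 with arrays left out. At day 9 2 rose with the mean of probe sets or the trend (Tmsb10 added), and at day 23 0 to 1 with arrays left out. Of the retinoic acid list, 1 rose at day 3 (Dhrs3) with quantile normalization, the level filter, the mean of probe sets or the trend. At day 9 0 rose with the mean of probe sets or its own arrays, 2 with the trend and 0 to 1 with arrays left out. Of the bundling list, 0 to 1 rose at day 3 with arrays left out, and at day 23 0 rose with median centring, the mean of probe sets or its own arrays, 2 with the trend (Cald1 added) and 0 to 1 with arrays left out. Relatives and neighbours gave 0 to 1 higher at day 9 with arrays left out. Apart from settings that use fewer arrays or genes, the cause of these changes was not tested. Dim levels limit 1444777_at and the treated day 3 level of 1417400_at.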
